A study of Mus musculus with 6 samples.

Results

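The unfolded protein response and the integrated stress response were examined in differentiated C3H10T1/2 adipocytes through 40 genes, chosen by symbol: 4 stress sensors and signal carriers, 7 regulators and effectors around ATF4, 8 amino acid genes linked to ATF4, 13 chaperones and folding enzymes of the endoplasmic reticulum (ER), 7 genes of ER-associated degradation and 1 lipoprotein receptor. All 40 symbols were among the 16423 in the deposited table, and 39 were among the 10341 genes tested. Derl3, which codes for a derlin of ER-associated degradation, was not tested: it was listed at 0 FPKM in 5 libraries and at 0.0420 FPKM, which is 1 read, in siYBX1 replicate 2.

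C3H10T1/2 cells are an established line of mouse mesenchymal cells, which form adipocytes under hormonal induction. All cells received 3-isobutyl-1-methylxanthine, dexamethasone, indomethacin, insulin, triiodothyronine and rosiglitazone, of which the last 3 were continued, and were transfected on day 4. The control group, labelled WT, received control siRNA (siNC, 3 libraries), and the group labelled as YBX1 knockdown received siRNAs against YBX1 (siYBX1, 3 libraries). RNA was taken 48 h after transfection. No group received an agent described in the labels as an inducer of ER stress. No untreated or untransfected group was included, so effects of the shared treatment on these levels cannot be told.

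In the unfolded protein response, unfolded protein in the ER lumen activates the membrane sensors PERK, IRE1 and ATF6. IRE1 splices the Xbp1 message, and XBP1 and cleaved ATF6 raise the transcription of chaperones and degradation genes. PERK is one of several kinases that phosphorylate eIF2alpha, which slows general translation while it favours translation of ATF4. ATF4 in turn drives genes for amino acid synthesis and uptake and, under lasting stress, the transcription factor CHOP (gene Ddit3). Secretory cells such as adipocytes, which export adipokines, rely on this machinery for folding. Several of these steps, among them eIF2alpha phosphorylation, Xbp1 splicing and ATF4 translation, leave no mark in a table of gene-level RNA.

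The promoters of ER chaperone genes and of ATF4 targets carry different known elements, which are shown here because the members are compared by them below. RefSeq promoter windows of 300 bases (250 before and 50 after the start of transcription, build GRCm38.p6) were found for 34 of the 40 members. There were 37 windows, and both strands were searched. Ppp1r15b, Slc7a5, Manf, Derl1, Hyou1 and Atf6 had no window and were not searched. The ER stress response element reads CCAAT, a gap of 9 bases, then CCACG. It was present in 39 of 32817 promoters (0.12%) and in windows of 9 members, namely Calr, Canx, Creld2, Derl3, Dnajc3, Hsp90b1, Hspa5, Pdia6 and Syvn1. The windows below are written 5′ to 3′ on the strand on which the element reads in that order, with the whole element in capitals and 12 bases on each side.
Hspa5, chr2:34772013-34772055, plus strand: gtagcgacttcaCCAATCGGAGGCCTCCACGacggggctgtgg
Calr, chr8:84847063-84847105, plus strand: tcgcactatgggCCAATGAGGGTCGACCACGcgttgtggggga
Hsp90b1, chr10:86705521-86705563, plus strand: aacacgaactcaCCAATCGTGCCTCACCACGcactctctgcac
Pdia6, chr12:17266479-17266521, plus strand: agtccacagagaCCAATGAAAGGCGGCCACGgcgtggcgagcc
Creld2, chr15:88819508-88819550, minus strand: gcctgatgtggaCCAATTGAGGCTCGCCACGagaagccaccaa

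The composite CEBP-ATF element, the type of site known to be bound by ATF4 with a partner, was searched as TGATGNAAN. It was present in 1298 promoters (3.96%) and in windows of 6 members, namely Asns, Chac1, Herpud1, Nupr1, Trib3 and Vldlr. In the windows of 5 of them the element is again in capitals.
Asns, chr6:7693212-7693244, minus strand: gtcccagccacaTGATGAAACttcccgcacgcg
Chac1, chr2:119351036-119351068, minus strand: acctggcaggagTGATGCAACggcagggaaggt
Herpud1, chr8:94386304-94386336, minus strand: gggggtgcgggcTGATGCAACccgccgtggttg
Nupr1, chr7:126625561-126625593, plus strand: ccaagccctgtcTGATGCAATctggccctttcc
Vldlr, chr19:27216807-27216839, minus strand: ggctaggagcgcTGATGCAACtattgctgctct

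The shorter core bound by XBP1, ACGTGG, was far more common, in 2725 promoters (8.3%), and lay in windows of Derl3, Dnajb9, Dnajc3, Herpud1, Nupr1 and Pdia6. Its reverse complement begins with the same letters as the second part of the ER stress response element, so the 2 searches can overlap. The related element ATTGG, 1 base, CCACG was present in 12 promoters (0.04%), Herpud1 among them. A match describes letters in a window and is not a measured binding site.

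The targeted gene checked the labels. Ybx1 measured 135, 134 and 130 FPKM in siNC replicates 1 to 3 and 59.3, 67.9 and 61.3 FPKM in siYBX1 replicates 1 to 3, so 47.3% of the mean remained (log2 fold change -1.07, SE 0.059, limma adjusted p = 3.98e-06). FPKM are fragment counts divided by gene length and by the library's reads. Library totals recovered from the values ran from 31957411 to 35410308 reads, and the tested members held between 190 reads (Chac1) and 46089 reads (Calr) in a library. Adipocyte markers summed to 2425 to 3337 FPKM in siNC and 2901 to 3378 FPKM in siYBX1, with 8 of 9 analysed here, 1 of them lower after knockdown and Cebpa below the limit for testing. The 6 of 7 brown adipocyte markers analysed here summed to 120.8 to 155.9 FPKM against 122.3 to 195.6 FPKM, with neither of the 2 tested called and Prdm16 and Elovl3 below 0.1 FPKM. Of the other cell types listed, smooth muscle and myofibroblast markers were higher after knockdown (575.8 to 643.8 FPKM in siNC and 1988 to 2087 FPKM in siYBX1, 3 of 4 tested higher, Cnn1 below 0.1 FPKM). The macrophage genes Adgre1, Csf1r and Ptprc were below 0.1 FPKM, and the 4 macrophage markers summed to 10.87 to 24.38 FPKM in siNC and 6.833 to 11.17 FPKM in siYBX1. The 4 osteoblast markers summed to 4.328 to 4.668 FPKM in siNC and 3.074 to 3.461 FPKM in siYBX1, with the 1 tested lower and Sp7 and Ibsp below 0.1 FPKM. The part of these marker levels in the results below was not tested, and in bulk RNA fewer cells of a type and less RNA per cell cannot be told apart.

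One control library stood apart from the others. Between siNC replicate 1 and siNC replicates 2 and 3 the SD of log2 differences over all tested genes was 0.175 and 0.157, against 0.11 between replicates 2 and 3. Over the members it was 0.249 and 0.232 against 0.0807. That library held the highest value of the 6 libraries for 14 of the 39 tested members and the lowest for 11. The next in order, siYBX1 replicate 1, held the highest for 12 and the lowest for 8. Among the members highest there, Trib3 was 1.98-fold, Ppp1r15a 1.55-fold and Ern1 1.38-fold above the mean of the other control libraries. Chac1, highest in siYBX1 replicate 1, measured 6.60 FPKM in siNC replicate 1 against 3.54 and 3.58 FPKM in siNC replicates 2 and 3. All called members and several other genes are therefore given with and without siNC replicate 1. The labels do not say whether replicates were separate cultures, so p-values measure only how these libraries vary, and that variation may be technical.

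After YBX1 knockdown 3 of 39 tested members rose and 4 fell, beside 9.54% and 11.1% of all genes tested. The rises were Nupr1, a stress-inducible chromatin-associated protein, Psph, the last enzyme of serine synthesis, and Slc7a5, the light chain of a large neutral amino acid transporter. The falls were Eif2ak3, which codes for the sensor PERK, Ddit3, which codes for CHOP, Vldlr, a lipoprotein receptor, and Creld2, an ER-resident folding factor. The called changes ran from -0.35 (Ddit3) to 0.34 (Nupr1) on the log2(FPKM + 1) scale, which understates changes of low genes. As mean FPKM in percent of control they ran from 74.7% (Eif2ak3) to 129.6% (Psph).

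The share of members called was close to that of all genes. In limma with Benjamini-Hochberg adjustment over all 10341 genes, 7 of 39 members (17.9%) were called, against 20.6% of all genes tested. The share over all genes was 11.6% without siYBX1 replicate 1 and 12.6% without siYBX1 replicate 2, where 4 and 5 members were called. Rises numbered 3 of 39 against 9.54% of all genes, and falls 4 of 39 against 11.1%. After rescaling to TPM the rises and falls were 662 and 1573 over all genes and 2 and 4 among members. The libraries of the 2 groups did not overlap for 13 of 39 members (33.3%), against 40.9% of all genes. The median log2 fold change was 0.023 over the members and -0.011 over all genes tested, with 22 members above 0 and 17 below. The members' median was -0.029 after rescaling to TPM and -0.028 after quantile normalization. Leaving out each library in turn gave 1 to 5 rises and 3 to 4 falls, with 11.6% to 19.6% of all genes called. Without siNC replicate 1 the falls of Eif2ak3 (-0.29), Ddit3 (-0.28) and Vldlr (-0.29) and the rises of Nupr1 (0.32), Psph (0.28) and Slc7a5 (0.38) were still called, with limma adjusted p of at most 0.0425. That of Creld2 (-0.19) was not (limma adjusted p = 0.0558).

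**Figure D1:**
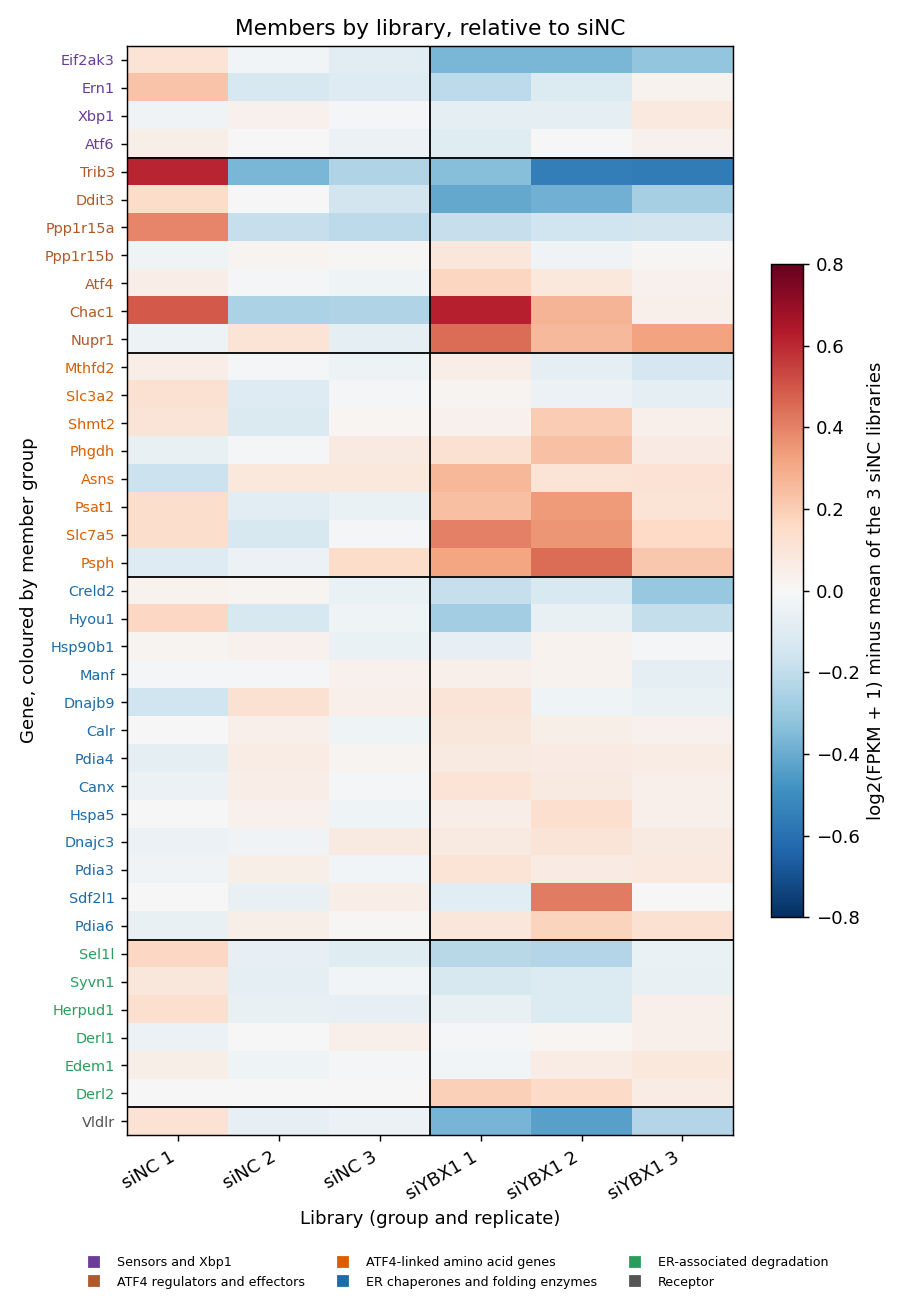
Each row is 1 of the 39 tested members, coloured by its group, and each column 1 library. Colour gives log2(FPKM + 1) minus the mean of the 3 siNC libraries. Trib3, Chac1 and Ppp1r15a are red in siNC replicate 1 alone among the controls, Nupr1, Psph and Slc7a5 are red in all siYBX1 libraries, and most chaperone rows are pale throughout.

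The 3 sensors and Xbp1 showed 1 fall in 4 genes (25% called, near the 20.6% of all genes), with a median log2 fold change of -0.061. Eif2ak3 measured 6.24, 5.62 and 5.32 FPKM in siNC and 4.21, 4.22 and 4.41 FPKM in siYBX1. All knockdown libraries lay below all controls, and the means were 5.73 ± 0.469 and 4.28 ± 0.114 FPKM (SD, n = 3 each). The log2 fold change was -0.35 (SE 0.068, limma adjusted p = 0.00624), a fall to 74.7% of control. Eif2ak3 was called in all 15 alternative analyses, those without siNC replicate 1 included, with log2 fold changes from -0.43 to -0.29.

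The other sensors did not pass the test. Xbp1, the transcription factor that IRE1 activates by splicing, measured 37.2, 38.8 and 37.7 FPKM in siNC and 36.0, 35.9 and 40 FPKM in siYBX1. The siYBX1 values held both the lowest and the highest of the 6 (log2 fold change -0.024, 95% confidence interval -0.15 to 0.10, limma adjusted p = 0.796). Atf6 averaged 8.72 ± 0.320 and 8.58 ± 0.454 FPKM, with overlapping groups and an interval of -0.15 to 0.11. Ern1, which codes for IRE1, was the least abundant tested member at 2.72 ± 0.534 and 2.47 ± 0.293 FPKM. Its value in siNC replicate 1, 3.34 FPKM, was the highest of all, and its log2 fold change moved from -0.098 to 0.017 without that library. Total Xbp1 RNA does not give the spliced form.

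The 7 ATF4 regulators and effectors held 1 rise and 1 fall (28.6% called, beside 20.6% of all genes), with a median of 0.023. Atf4 itself measured 190, 181 and 178 FPKM in siNC and 206, 194 and 187 FPKM in siYBX1. The lowest knockdown value lay below the highest control, so the groups overlapped (log2 fold change 0.097, 95% confidence interval -0.030 to 0.22, limma adjusted p = 0.25). Atf4 was called in 0 of 15 alternatives, and its smallest adjusted p in limma was 0.136.

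Nupr1, a target of ATF4 in stressed cells, was the third most abundant member. It measured 208, 232 and 204 FPKM in siNC and 293, 256 and 268 FPKM in siYBX1. Every knockdown library exceeded every control, with means of 214 ± 14.9 and 272 ± 18.7 FPKM (SD, n = 3 each). This was a log2 fold change of 0.34 (SE 0.070, limma adjusted p = 0.00744), or 1.27-fold, and the call held in all 15 alternatives, from 0.23 to 0.40. Its promoter window is one of those that hold the CEBP-ATF element, shown above.

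Ddit3 moved the other way. It measured 36.7, 33.0 and 29.8 FPKM in siNC and 24.7, 25.1 and 27.3 FPKM in siYBX1. The groups did not overlap, and siNC replicate 1 was again the highest. The means were 33.2 ± 3.46 and 25.7 ± 1.39 FPKM (SD, n = 3 each), a log2 fold change of -0.35 (SE 0.074, limma adjusted p = 0.00889) or 77.5% of control. The call held in 14 of 15 alternatives and was lost with no filter on low values (limma adjusted p = 0.0544).

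A set of 3 further effectors turned on siNC replicate 1, as the plot of values by library shows. Trib3, a pseudokinase that CHOP and ATF4 induce, measured 17.6, 8.44 and 9.30 FPKM in siNC and 8.62, 7.31 and 7.27 FPKM in siYBX1. Apart from that control library the values spanned 7.27 to 9.30 FPKM. Its log2 fold change was -0.48 (SE 0.20, limma adjusted p = 0.108), -0.18 without siNC replicate 1 (limma adjusted p = 0.144) and -0.67 without siNC replicate 2 (limma adjusted p = 0.0352). Chac1, an enzyme that degrades glutathione, measured 6.60, 3.54 and 3.58 FPKM in siNC and 7.32, 5.53 and 4.55 FPKM in siYBX1. In siNC replicates 2 and 3 it lay below all knockdown libraries, and in siNC replicate 1 inside their range. The log2 fold change was 0.31 (SE 0.19, limma adjusted p = 0.266), and 0.56 without siNC replicate 1 (limma adjusted p = 0.0135). Ppp1r15a, which codes for GADD34, the inducible subunit that directs a phosphatase to eIF2alpha, measured 15.3, 9.92 and 9.75 FPKM in siNC and 9.91, 10.1 and 10.2 FPKM in siYBX1. Its log2 fold change of -0.16 (limma adjusted p = 0.399) became 0.033 without siNC replicate 1 (limma adjusted p = 0.727). Ppp1r15b, the constitutive counterpart, averaged 32.1 ± 0.655 and 32.6 ± 1.41 FPKM, with overlapping groups.

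**Figure D2:**
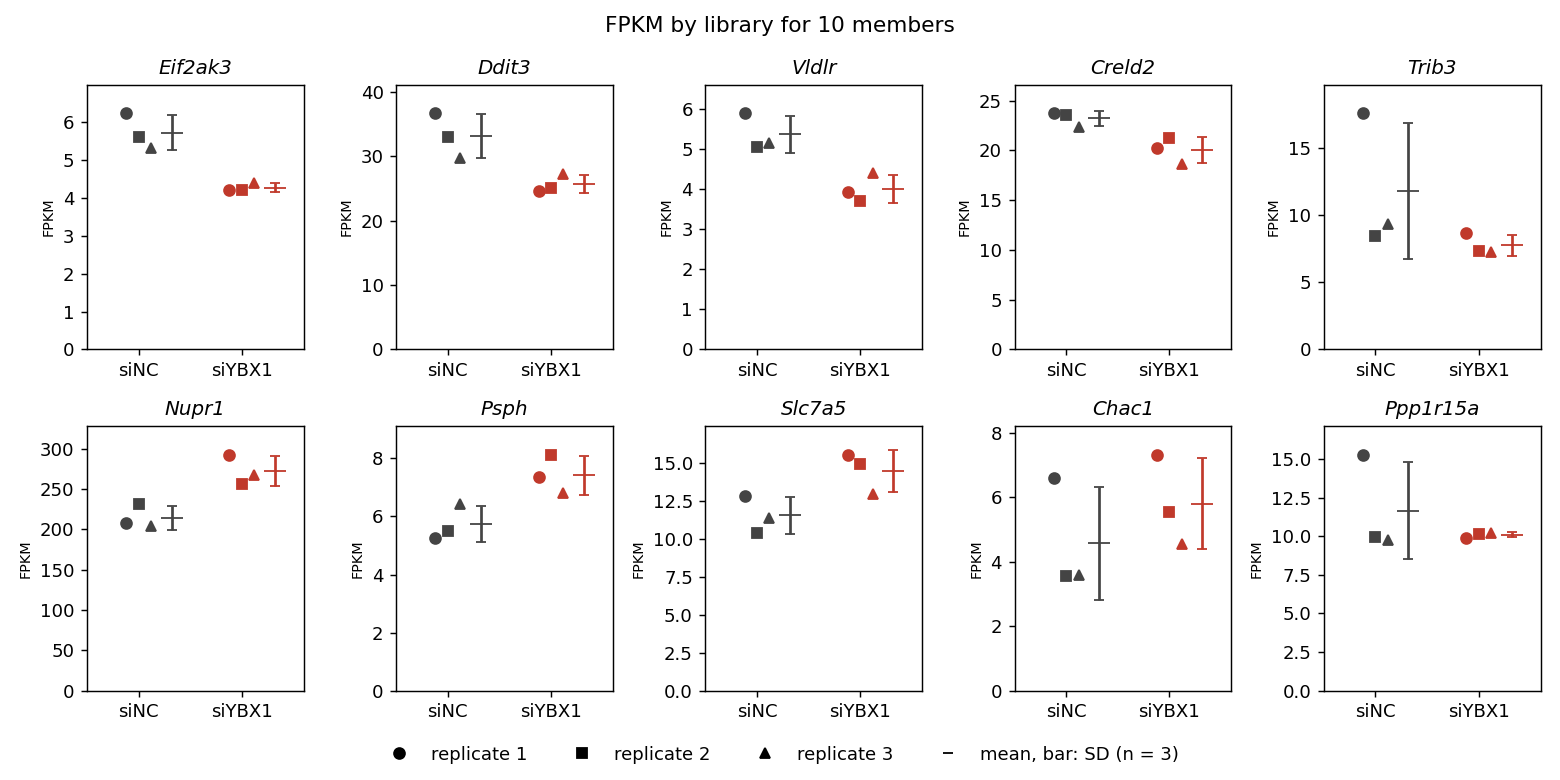
FPKM of 10 members in each library, with circles, squares and triangles for replicates 1, 2 and 3, and the mean with its SD (n = 3) beside them. Axes start at 0 and differ between genes. The groups separate for Eif2ak3, Ddit3, Vldlr, Creld2, Nupr1, Psph and Slc7a5, whereas siNC replicate 1 stands above both other controls for Trib3, Chac1 and Ppp1r15a.

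The ATF4-linked amino acid genes showed 2 rises and no fall in 8 genes (25% called, near the 20.6% of all genes). Their median log2 fold change was 0.15, and 6 of the 8 values were above 0. The serine synthesis pathway runs through Phgdh, Psat1 and Psph. Psph measured 5.26, 5.50 and 6.43 FPKM in siNC and 7.35, 8.13 and 6.80 FPKM in siYBX1. The groups did not overlap, and the means were 5.73 ± 0.618 and 7.43 ± 0.671 FPKM (SD, n = 3 each). Psph thus rose by 0.33 on the log2 scale (SE 0.082, limma adjusted p = 0.0195). The call held in 11 of 15 alternatives and was lost without siNC replicate 2, siYBX1 replicate 1 or siYBX1 replicate 2 and with no filter, where limma's adjusted p reached 0.0844.

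The enzymes upstream of Psph did not pass. Psat1 measured 97.8, 83.1 and 85.2 FPKM in siNC and 105, 112 and 95.4 FPKM in siYBX1. Only siNC replicate 1 reached into the knockdown range (log2 fold change 0.23, SE 0.076, limma adjusted p = 0.0544). Without that library it was 0.30 (limma adjusted p = 0.00856), and it also passed without siYBX1 replicate 3 and with limma's voom on recovered reads. Phgdh, the first enzyme, averaged 57.4 ± 2.63 and 63.5 ± 3.87 FPKM and overlapped between groups (limma adjusted p = 0.111). In the mitochondrial folate branch, which takes up serine, Shmt2 averaged 31.8 ± 2.51 and 33.9 ± 2.33 FPKM and Mthfd2 27.0 ± 0.942 and 26.0 ± 1.81 FPKM, and both overlapped.

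Among the transporter genes, Slc7a5, the light chain, measured 12.8, 10.4 and 11.4 FPKM in siNC and 15.5, 14.9 and 12.9 FPKM in siYBX1. The highest control lay just under the lowest knockdown library, with means of 11.5 ± 1.19 and 14.5 ± 1.36 FPKM (SD, n = 3 each). Slc7a5 thus rose by 0.30 on the log2 scale (SE 0.084, limma adjusted p = 0.0270), and the call held in 9 of 15 alternatives. It was lost without siNC replicate 2, siNC replicate 3, siYBX1 replicate 1 or siYBX1 replicate 2, after rescaling to TPM and with no filter, where limma's adjusted p reached 0.106. Slc3a2, the heavy chain that brings Slc7a5 to the membrane, measured 14.4 ± 1.20 and 14.0 ± 0.543 FPKM (log2 fold change -0.034, 95% confidence interval -0.18 to 0.11). The difference between the chains was not tested.

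Asns, asparagine synthetase, is widely used as a readout of ATF4. It measured 84.4, 101 and 101 FPKM in siNC and 115, 103 and 103 FPKM in siYBX1. The groups did not overlap, although siYBX1 replicates 2 and 3 lay within 3 FPKM of siNC replicates 2 and 3. The log2 fold change was 0.17 (SE 0.077, limma adjusted p = 0.146), and it passed in 0 of 15 alternatives. The count of rises in this group was 3 without siNC replicate 1 or siYBX1 replicate 3 and 1 without siNC replicate 3. It was 0 without siNC replicate 2, siYBX1 replicate 1 or siYBX1 replicate 2. In that order, 19.6%, 16.5%, 13.8%, 16.5%, 11.6% and 12.6% of all genes were called.

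**Figure D3:**
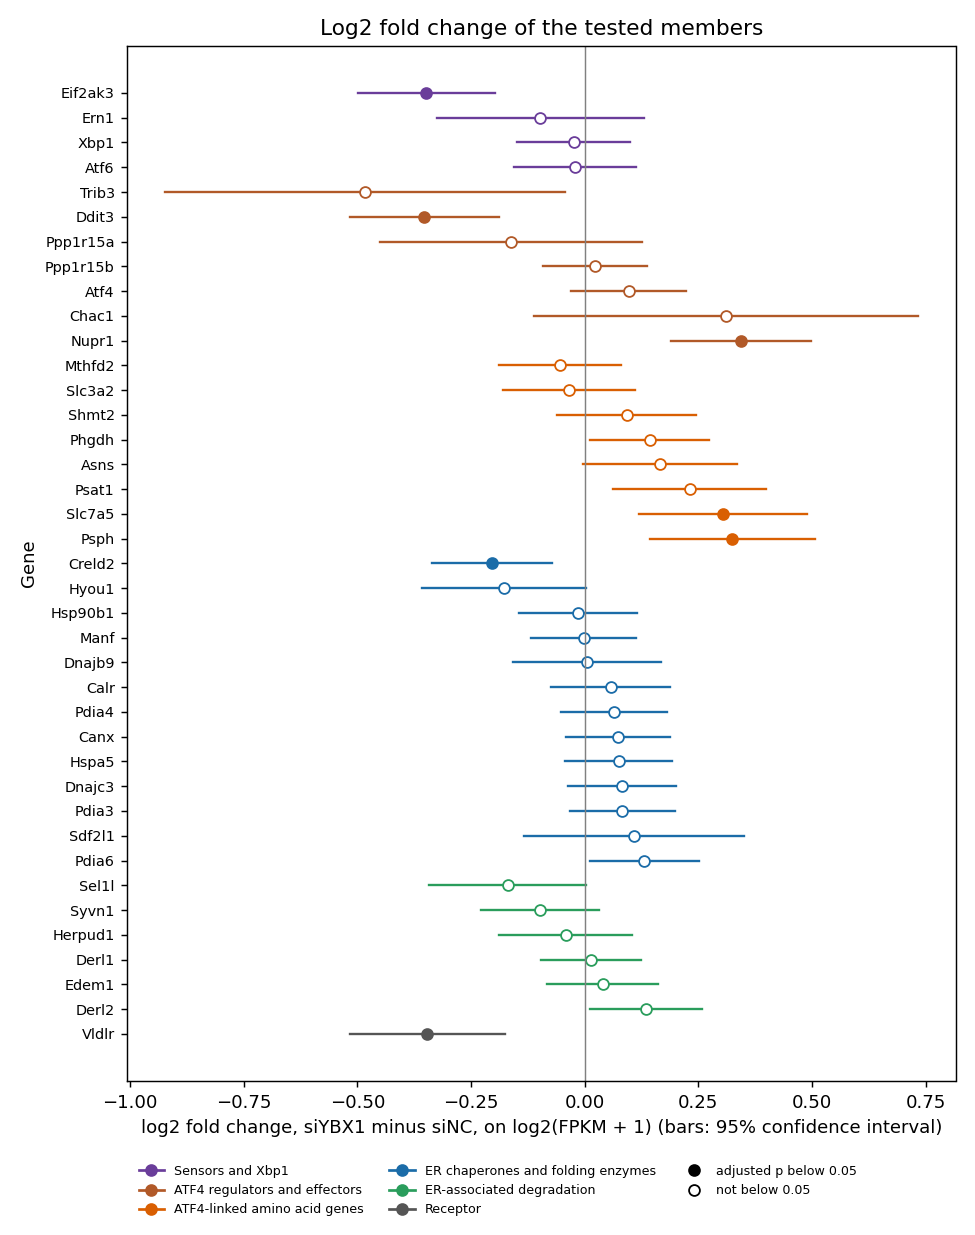
Log2 fold change (siYBX1 minus siNC, on log2(FPKM + 1)) of the 39 tested members with 95% confidence intervals, grouped by role. Filled points passed an adjusted p of 0.05. The chaperones lie between -0.20 (Creld2) and 0.13 (Pdia6), and the amino acid genes between -0.054 (Mthfd2) and 0.33 (Psph).

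The ER chaperones and folding enzymes held the most abundant members, Calr and Hsp90b1. Of 13 genes 0 rose and 1 fell (7.69% called, beside 20.6% of all genes). Their log2 fold changes ran from -0.20 to 0.13, and the median was 0.065. The sign of that median depended on the scaling, since it was -0.028 after quantile normalization and 0.013 after rescaling to TPM. Over 15 alternatives no chaperone other than Creld2 was called.

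Hspa5 codes for BiP, the HSP70 chaperone of the ER lumen that holds the sensors inactive, and it is the usual marker of an active response. It measured 187, 191 and 182 FPKM in siNC and 194, 205 and 192 FPKM in siYBX1. Every knockdown library was above every control, by less than 1 FPKM at the nearest pair. The log2 fold change was 0.075 (SE 0.053, 95% confidence interval -0.043 to 0.19, limma adjusted p = 0.336), and it was -0.020 after quantile normalization. The interval leaves room for a rise of up to 0.19 on the log2 scale.

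Other abundant chaperones had intervals of like width. Calr, a lectin chaperone that also stores calcium, averaged 650 ± 16.8 and 676 ± 13.5 FPKM. Hsp90b1, the ER form of HSP90, averaged 435 ± 14.6 and 431 ± 14.2 FPKM. Canx, the membrane-bound counterpart of Calr, averaged 130 ± 4.50 and 137 ± 3.17 FPKM. These 3 overlapped between groups, and their confidence intervals reached at most 0.19 in either direction.

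The protein disulfide isomerases, which form and rearrange disulfide bonds, were each above all controls in all knockdown libraries. Pdia3 averaged 229 ± 6.67 and 242 ± 3.67 FPKM, Pdia4 109 ± 5.23 and 114 ± 0.493 FPKM, and Pdia6 155 ± 5.93 and 170 ± 5.22 FPKM. Their log2 fold changes were 0.083, 0.065 and 0.13, and none passed the test (limma adjusted p = 0.278, 0.405 and 0.107). Pdia3 and Pdia4 turned to -0.030 and -0.022 after quantile normalization. Non-overlapping groups were found for 5 of 13 chaperones (38.5%), beside 40.9% of all genes.

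The co-chaperones and smaller folding factors gave 1 call. Creld2 measured 23.7, 23.6 and 22.4 FPKM in siNC and 20.3, 21.2 and 18.7 FPKM in siYBX1. The groups did not overlap, with means of 23.2 ± 0.740 and 20.1 ± 1.30 FPKM (SD, n = 3 each). Creld2 thus fell by 0.20 on the log2 scale (SE 0.059, limma adjusted p = 0.0344). This was the least stable call among the members, held in 7 of 15 alternatives and lost without any single control, without siYBX1 replicate 1 or 3, with the replicate number as a block, with voom and with no filter (highest adjusted p 0.108).

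Dnajb9 and Dnajc3 are J-domain partners of BiP, and Manf is a secreted ER stress factor. Dnajb9 averaged 65.2 ± 6.37 and 65.3 ± 3.92 FPKM, Dnajc3 19.9 ± 0.964 and 21.1 ± 0.297 FPKM, and Manf 85.6 ± 1.96 and 85.5 ± 3.72 FPKM. All 3 overlapped between groups. Hyou1, a nucleotide exchange factor for BiP, averaged 14.7 ± 1.65 and 12.9 ± 1.05 FPKM (log2 fold change -0.18, limma adjusted p = 0.145), with its highest value in siNC replicate 1. Without that library its log2 fold change was -0.096. Sdf2l1 was near 10 FPKM in all libraries but siYBX1 replicate 2, at 13.9 FPKM, and its log2 fold change of 0.11 was -0.045 without that library.

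Of the 6 tested genes of ER-associated degradation, which extracts misfolded proteins for the proteasome, none was called, beside 20.6% of all genes. At an unadjusted p below 0.05 in limma there was 1 such gene, Derl2, and over the alternatives limma and voom called none. Derl2 measured 11.7 FPKM in each siNC library and 13.5, 13.2 and 12.3 FPKM in siYBX1. The groups did not overlap, and the log2 fold change was 0.14 (SE 0.056, limma adjusted p = 0.108). Derl1, another derlin, averaged 93.2 ± 2.83 and 94.1 ± 1.57 FPKM. The ubiquitin ligase Syvn1 averaged 17.1 ± 1.08 and 15.9 ± 0.410 FPKM, and its partner Sel1l 20.6 ± 2.20 and 18.2 ± 1.36 FPKM (limma adjusted p = 0.25 and 0.145). Herpud1, which recruits the ligase complex, averaged 30.7 ± 2.44 and 29.7 ± 1.65 FPKM. Edem1, a lectin that directs glycoproteins to degradation, averaged 14.7 ± 0.475 and 15.1 ± 0.619 FPKM. Sel1l, Syvn1 and Herpud1 each had their highest value in siNC replicate 1. Without that library their log2 fold changes were -0.087, -0.052 and 0.021.

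Vldlr binds triglyceride-rich lipoproteins at the cell surface, and its gene is induced by the PERK and ATF4 branch in some tissues. It measured 5.90, 5.06 and 5.15 FPKM in siNC and 3.92, 3.71 and 4.40 FPKM in siYBX1. The groups did not overlap, with means of 5.37 ± 0.460 and 4.01 ± 0.356 FPKM (SD, n = 3 each). The log2 fold change was -0.35 (SE 0.077, limma adjusted p = 0.0111), and the call held in 13 of 14 alternatives, lost with no filter (limma adjusted p = 0.0584). Vldlr and Nupr1 both carry the CEBP-ATF element in their windows and changed in opposite directions.

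Grouped by element, 8 tested members with the ER stress response element gave 0 rises and 1 fall (Creld2), with a median log2 fold change of 0.065. The 6 members with the CEBP-ATF element gave 1 rise (Nupr1), 1 fall (Vldlr) and a median of 0.062, from -0.48 (Trib3) to 0.34 (Nupr1). The 5 tested members with the XBP1 core gave 1 rise (Nupr1), with a median of 0.082. Over all genes tested 20.6% were called and the median was -0.011.

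Gene length moved with the result over the whole table. Among the 2069 shortest genes tested the median was 0.0786, and among the 2068 longest it was -0.0672, both as log2 fold changes. The lengths of the called members ran from 626 bases (Nupr1) to 12715 bases (Vldlr), and a correction for length kept all 7 of their calls, with Nupr1 at 0.24 and Vldlr at -0.27. These lengths are the shortest that turn the FPKM values into whole reads.

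Genes of the same pathways that are not among the 40 were taken from lists chosen with earlier results of these data known. Over 153 tested genes in 7 lists, 28 rose and 15 fell (28.1% called, beside 20.6% of all genes). After rescaling to TPM these counts were 17 and 19, with 21.6% of all genes called. They were 18 and 10 without siNC replicate 3 and 14 and 8 without siYBX1 replicate 1. They were 14 and 9 without siYBX1 replicate 2, and 18 and 12 without siYBX1 replicate 3. In that order, 13.8%, 11.6%, 12.6% and 16.5% of all genes were called. Without siNC replicate 1 the share over all genes was 19.6%, and without siNC replicate 2 it was 16.5%. The counts below for left-out libraries stand beside these same shares. Among 16 eIF2alpha kinases and eIF2 factors 1 rose and 1 fell (12.5% called). Eif2s2, the beta subunit of eIF2, rose from 87.0 ± 3.76 to 111 ± 9.51 FPKM (log2 fold change 0.35, limma adjusted p = 0.00639). Dele1, which relays mitochondrial stress to the eIF2alpha kinase HRI, fell from 16.3 ± 0.612 to 13.9 ± 0.519 FPKM (log2 fold change -0.22), a call lost under the replicate block and without siNC replicate 3, siYBX1 replicate 1 or siYBX1 replicate 2.

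Among 34 other ATF4 targets 3 rose and 3 fell (17.6% called, beside 20.6% of all genes), with a median of -0.00065. Nars, an asparaginyl-tRNA synthetase, rose from 78.0 ± 1.27 to 99.9 ± 2.56 FPKM (log2 fold change 0.35), and Got1, an aspartate aminotransferase, by 0.23. The Got1 call was lost in 9 of 15 alternatives, among them each left-out library other than siNC replicate 1. Gpt2, an alanine aminotransferase of mitochondria, fell from 7.46 ± 1.02 to 4.50 ± 0.0415 FPKM (log2 fold change -0.61), and Slc1a5, a glutamine transporter, from 25.01 ± 0.832 to 18.2 ± 0.0447 FPKM (-0.44). Without siNC replicate 1 this list held 7 rises and 2 falls, and without each other library in turn 1 to 2 rises and 2 to 3 falls.

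Among 27 other ER folding genes 3 rose and 4 fell (25.9% called, beside 20.6% of all genes). There was 1 rise without each siYBX1 library in turn and 1 fall without siYBX1 replicate 1. Erp29, a PDI-like folding factor, rose from 49.2 ± 0.671 to 60.3 ± 1.57 FPKM, and Fkbp7, a prolyl isomerase, by 0.28 on the log2 scale. Fkbp7 was lost in 7 of 15 alternatives, among them the length correction and each left-out siYBX1 library. Ero1a, the oxidase that recharges disulfide isomerases, fell from 224 ± 34.2 to 164 ± 16.5 FPKM (log2 fold change -0.44), which was lost with no filter and without siYBX1 replicate 1. Uggt1, which checks glycoprotein folding, fell from 11 ± 0.590 to 7.85 ± 0.376 FPKM (-0.44) and held in all 15 alternatives.

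The list of translocon, signal peptidase and N-glycosylation genes held 10 rises and 3 falls in 29 genes (44.8% called, beside 20.6% of all genes), with a median of 0.065. Sec61g, a small subunit of the translocon, rose from 57.8 ± 3.65 to 80.9 ± 12.8 FPKM (log2 fold change 0.47), and Ostc, a subunit of oligosaccharyltransferase, from 56.6 ± 3.35 to 75.9 ± 2.01 FPKM (0.42). Ssr1, of the translocon-associated complex, and Rpn2, of oligosaccharyltransferase, fell by 0.27 and 0.25 on the log2 scale. The counts were 8 and 2 with the length correction. They were 5 and 2 without siYBX1 replicate 1 or 2 and with the replicate block, and 4 and 3 with no filter. In that order, 20.4%, 11.6%, 12.6%, 13.0% and 7.56% of all genes were called.

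Among 25 other ER-associated degradation genes 5 rose and 1 fell (24.0% called, beside 20.6% of all genes). Ube2g2, a ubiquitin-conjugating enzyme, rose by 0.36 and Selenos, a selenoprotein of the retrotranslocation complex, by 0.29, while Edem2 fell by 0.27 on the log2 scale. The counts were 2 and 1 after rescaling to TPM and without siNC replicate 3, siYBX1 replicate 1 or siYBX1 replicate 3, and 3 and 1 without siYBX1 replicate 2. Among 15 ER stress transducers 4 rose and 3 fell (46.7% called, beside 20.6% of all genes). There was 1 rise after rescaling to TPM and without siNC replicate 2 or 3 or siYBX1 replicate 2 or 3. Without siYBX1 replicate 1 there were 2. Creb3, an ER-bound transcription factor, rose by 0.26 and its relative Creb3l1 by 0.25, the latter lost in 7 of 15 alternatives, among them each left-out library other than siNC replicate 1 and siYBX1 replicate 1. Bcl2l11, which codes for the death factor BIM, fell by 0.43, and Mbtps2, a protease that releases ATF6, by 0.31. Among 7 ER-phagy receptors 28.6% were called, beside 20.6% of all genes. Retreg3 rose by 0.30 and Rtn3 by 0.26, both in all 15 alternatives, and none fell.

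**Figure D4:**
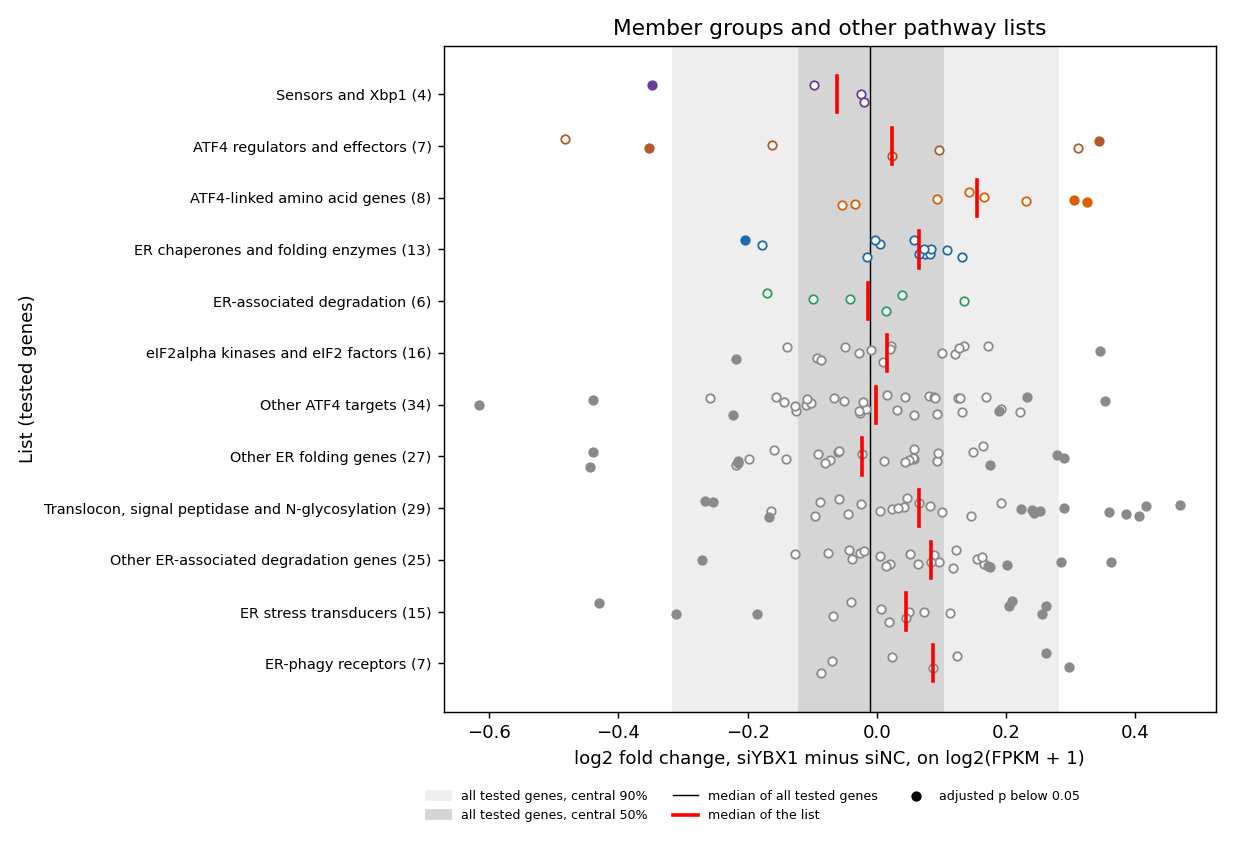
Each point is 1 tested gene of the list named at the left, placed by its log2 fold change, with filled points past an adjusted p of 0.05 and a red bar at the list's median. Grey bands hold the central 50% and 90% of all 10341 tested genes, and the black line is their median, -0.011. The 13 ER chaperones lie between -0.20 and 0.13, and the 29 translocon and glycosylation genes reach furthest to the right.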

How the data were processed

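RNA was sequenced in 3 siNC and 3 siYBX1 libraries. The authors deposited 1 table of FPKM values per gene symbol. Tools named in the submitters' processing notes are HTSeq, HISAT2 and fastp, with the build GRCm39. Versions, strand and gene lengths are not given in the sources used here. From the steps in the FPKM values whole reads were recovered for 16423 of 16423 genes (100.0%), within 0.02 reads. For each gene the shortest length that gave whole reads was taken, so lengths of genes with few reads are not settled. The recovered reads and lengths served the length check and limma's voom. One read on 2 kb was worth 0.0141 to 0.0156 FPKM.

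The main test was limma 3.58.1 (R 4.3.3) with a trend, two-sided, on log2(FPKM + 1). It took genes whose mean FPKM was 1 or more, with no covariate and Benjamini-Hochberg adjustment over 10341 genes. Log2 fold changes are on that scale, which understates changes of low genes. Percent of control and fold are ratios of mean FPKM. Exact permutation of 3 against 3 libraries cannot give p below 0.1. The 15 alternatives were 2 pseudocounts, 2 filters, TPM, quantile normalization, a replicate block, a length correction, voom and each library left out. The test was also run on simulated reads with known fold changes. The pass mark for recovery there covered only fold changes larger than those of the called members. Scripts ran in Python 3.11.15.

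The 40 members, other lists, markers and tests were chosen with earlier results of these data known. All members were named, with Ybx1 and, per other list, the 2 largest called rises and falls. RefSeq promoters are of GRCm38.p6, another build than that of the files, and were used for sequence only. Reads shared between similar or overlapping genes may be split by the authors' counting.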

Additional observations from a re-analysis of the deposited data

How the results depend on the processing

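Over all tested genes the same-numbered siNC and siYBX1 libraries did not deviate together (correlations -0.306, -0.131 and -0.246). With 3 libraries per group this cannot show whether the numbers mark a shared culture or day, which the labels do not say. With the replicate number as a block the rises and falls over all genes were 607 and 739, against 987 and 1145 (13.0% called), the members held 4 and 4, and the chaperones 0 falls. The other pathway genes then held 13 rises and 9 falls, and Trib3 and Chac1 passed the threshold. With no filter on low values there were 577 and 664 over all genes, 1 and 1 among members, 0 rises among amino acid genes and 0 falls among chaperones. Voom gave 0 falls among chaperones and TPM 1 rise among amino acid genes. Leaving out each library gave 543 to 970 rises and 608 to 1056 falls over all genes, 1 to 5 rises among members, 0 to 3 among amino acid genes and 0 to 1 falls among chaperones. TPM moved the split over all genes to 662 rises and 1573 falls, with the median log2 fold change over all genes at -0.0612 against -0.0108. Some of these settings used fewer libraries, and the cause of the shifts was not tested.

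Signs turned only for members that were not called. The chaperone median was 0.0355 with the length correction, 0.0132 with TPM and -0.0282 after quantile normalization. The length correction gave 0.0432 for Atf6, -0.021 for Dnajb9 and 0.0345 for Slc3a2. Quantile normalization gave 0.00658 for Atf6, -0.0279 for Calr, -0.0282 for Canx, -0.0578 for Derl1, -0.057 for Dnajb9, -0.02 for Hspa5, -0.0301 for Pdia3 and -0.0223 for Pdia4. TPM gave -0.0375 for Derl1, -0.0472 for Dnajb9, -0.00996 for Edem1 and -0.0286 for Ppp1r15b. With each library left out, values ran from -0.00738 to 0.036 for Derl1, -0.0734 to 0.0642 for Dnajb9, -0.163 to 0.0172 for Ern1, -0.0836 to 0.0214 for Herpud1, -0.267 to 0.0334 for Ppp1r15a and -0.0855 to 0.0255 for Slc3a2. They ran from -0.0474 to 0.0187 for Atf6, -0.0429 to 0.00957 for Hsp90b1, -0.0227 to 0.0339 for Manf, -0.0104 to 0.0483 for Ppp1r15b, -0.0445 to 0.209 for Sdf2l1 and -0.0737 to 0.00223 for Xbp1. Nupr1 and Eif2ak3 kept their calls in all 15 alternatives, and no called member changed sign. The SEs of the chaperones ran from 0.052 (Canx) to 0.11 (Sdf2l1).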
